A study of Mus musculus with 8 samples.

Results

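Sense-intronic transcripts are non-coding RNAs annotated inside an intron of a protein-coding gene and on the same strand as that gene. In mouse retina, 57 of the 320 genes annotated with this biotype had a sum of at least 80 raw counts over 8 RNA-seq libraries, and these 57 are described here together with their host genes. The whole table listed 54532 genes, and 254 sense-intronic genes had a count in any library. The minimum on the count sum chose the 57 by their level, so their levels are a description. Just above it stood Gm43581, Gm26930 and Gm43462, with 86 counts each. Just below it stood Gm43061 with 79, Gm42869 with 76 and Gm44836 with 75.

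The study compared retinas labelled sIVs, which the series title spells out as small intracellular vesicles, with retinas labelled PBS, the buffer control. Each group had 4 libraries, numbered 1, 3, 4 and 5. The labels gave no strain, age, dose, route or time of treatment. They counted biosamples without saying whether each was a separate animal, so p-values measure the spread between these samples, which may be technical. RNA was selected by its poly(A) tail, per the labels, and in bulk tissue fewer cells of a type and less RNA per cell cannot be told apart.

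Introns are removed from the primary transcript and most of their RNA is degraded in the nucleus. An intron can also hold a separate gene with its own promoter and 3′ end, and some annotated sense-intronic transcripts are spliced and polyadenylated. Cleavage and polyadenylation usually follow a hexamer, AATAAA or ATTAAA in the DNA, which lies shortly upstream of the cut. Counts alone do not separate a nested transcript from unspliced RNA of its host, because both come from the same strand. In the values below they cannot be told apart.

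Of the 57 transcripts, 30 had 1 exon and 27 were spliced. A protein-coding gene on the same strand contained 55 of them, and the other 2 were Gm26575 and Gm26930. Of these 55, 14 lay in intron 1. Introns were counted in the host transcript with the most exons among those with an intron that contains the nested RNA. The introns were 1227 to 1244595 bases long, with a median of 10383. The distance from the whole span of the nested gene, its own introns included, to the nearest host exon had a median of 932 bases. The span of 1 transcript, Gm45148, overlapped an exon of its host Zfp444. Exons of 5 transcripts overlapped a gene on the opposite strand. Whether counting used strand is not given in the sources used here, so reads of these 5 and of their antisense partners cannot be told apart. A tested host was found for 52 transcripts, with 50 hosts in all, since Capza1 and Lrig2 each held 2.

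The last 60 bases of 6 transcripts that carry a poly(A) signal are shown first, because in 1 library, sIVs replicate 4, levels differed between transcripts with and without it. These 6 were there at 62.7% to 127% of their median in the other 7 libraries. Coordinates are mm10 (GRCm38), the sequence is the GENCODE M21 transcript written 5′ to 3′, and capitals mark the AATAAA or ATTAAA nearest the 3′ end within the last 50 bases.
Peg13 (chr15:72805600-72805659, minus strand): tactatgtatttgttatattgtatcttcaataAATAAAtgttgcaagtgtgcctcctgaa
B930095G15Rik (chr14:121253912-121253971, plus strand): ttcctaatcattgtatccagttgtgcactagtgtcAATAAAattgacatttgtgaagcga
Gm15513 (chr5:34211810-34211869, minus strand): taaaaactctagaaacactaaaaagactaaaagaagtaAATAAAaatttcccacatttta
Gm17491 (chr8:22483273-22483332, plus strand): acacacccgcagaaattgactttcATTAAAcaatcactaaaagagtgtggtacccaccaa
Gm29170 (chr1:143781248-143781307, plus strand): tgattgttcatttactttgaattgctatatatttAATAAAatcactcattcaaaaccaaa
Gm42829 (chr5:122411015-122411074, plus strand): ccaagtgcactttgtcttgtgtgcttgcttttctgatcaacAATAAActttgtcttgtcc

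Next are 5 transcripts with neither hexamer in that window, each at 0% to 9.42% of that median in sIVs replicate 4.
Gm42664 (chr3:119743208-119743267, minus strand): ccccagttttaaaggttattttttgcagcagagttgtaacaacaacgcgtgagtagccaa
Gm38190 (chr1:165230371-165230430, minus strand): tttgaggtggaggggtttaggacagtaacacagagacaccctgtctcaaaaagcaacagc
Gm47798 (chr14:16308266-16308325, plus strand): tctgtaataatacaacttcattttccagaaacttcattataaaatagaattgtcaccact
Gm28941 (chr1:82740648-82740707, plus strand): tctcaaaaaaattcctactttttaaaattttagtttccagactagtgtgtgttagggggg
Gm44200 (chr6:113611468-113611527, plus strand): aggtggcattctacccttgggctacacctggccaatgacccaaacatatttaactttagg

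The next 4 held a hexamer and were nevertheless at 0% to 18.1% of that median. All 4 also held the letters CAGTGTACT, searched on the transcript strand in the last 60 bases after these sequences had been read.
Gm20274 (chr7:122995872-122995931, plus strand): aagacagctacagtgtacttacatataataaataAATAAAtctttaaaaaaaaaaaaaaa
Gm43138 (chr5:110207228-110207287, plus strand): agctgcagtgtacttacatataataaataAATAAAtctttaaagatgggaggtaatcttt
Gm19409 (chr5:30818418-30818477, plus strand): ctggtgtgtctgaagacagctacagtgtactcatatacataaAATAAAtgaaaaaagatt
Gm48357 (chr13:58184896-58184955, minus strand): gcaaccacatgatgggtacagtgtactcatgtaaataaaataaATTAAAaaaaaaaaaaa

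The last 2 had neither hexamer and were at 499% and 135% of that median. These 17 ends were picked by hexamer and level together, so they illustrate the combinations and not their frequency.
Gm19938 (chr1:3647309-3647368, minus strand): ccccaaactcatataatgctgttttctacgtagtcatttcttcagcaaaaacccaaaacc
Gm42463 (chr3:94418227-94418286, plus strand): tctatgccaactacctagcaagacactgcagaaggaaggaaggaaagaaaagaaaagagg

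In all, 24 of 57 transcripts (42.1%) had AATAAA or ATTAAA, on the transcript strand, in the last 50 bases of their longest transcript. The same search found a match in 28.1% of all 320 sense-intronic genes, in 40.9% of lincRNA genes and in 68.7% of protein-coding genes. The letters CAGTGTACT occurred in 4 of the 57, in no transcript of the 57 other than the 4 printed, and in 0.383% of protein-coding genes. A match of letters is a description and does not show a site in use.

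Library totals were 13803958 to 16622259 counts, and the 57 transcripts together had 535 to 605 counts per 1000000 library counts in PBS. In sIVs they had 582, 588, 339 and 495 in replicates 1, 3, 4 and 5. Group means were 560 ± 32.1 in PBS and 501 ± 116 in sIVs (SD, n = 4 each). The sum was lowest in sIVs replicate 4, followed by sIVs replicate 5, and the other 2 sIVs libraries lay within the PBS range. Peg13 alone made up 61.1% of these counts. Without it the sum was 239, 224, 215 and 194 per 1000000 in PBS replicates 1, 3, 4 and 5, and 219, 238, 141 and 181 in sIVs, so sIVs replicate 4 was again lowest.

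The sIVs replicate 4 library stood apart from the rest over all genes. Its chi-square distance per degree of freedom to the other sIVs libraries was 55.5 to 115, against 6.17 to 35.9 for other pairs within a group. Its summed level of 8 retinal pigment epithelium markers was 385 CPM (counts per 1000000 of the library size scaled with TMM factors), against 7.26 to 51.0 in the other 7 libraries, and that of 12 nuclear-retained long non-coding RNAs was 1468 against 2313 to 3142. Over 14222 protein-coding genes, its log2 level against the median of the other libraries had a correlation of -0.54 with log2 listed gene length. The correlation was 0.06 over the 57 transcripts and -0.58 over their 50 hosts. Listed length is the deposited value, which for the 57 transcripts counts exon bases and leaves out their introns. The part of tissue makeup, gene length or RNA quality in the results below was not tested, and differences between the groups are given with and without this library.

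**Figure D1:**
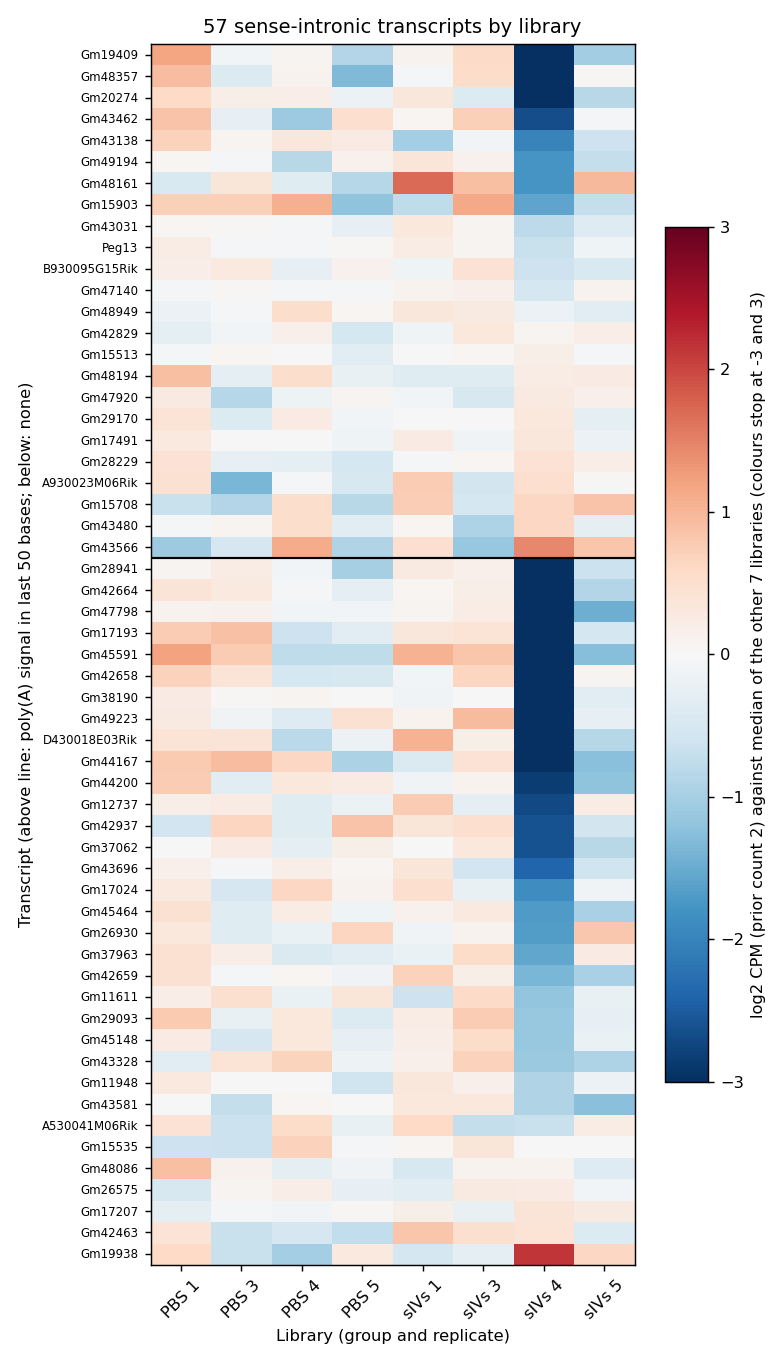
Levels of the 57 sense-intronic transcripts (rows) in the 8 libraries (columns), as log2 CPM minus the median log2 CPM of the other 7 libraries, with those holding a poly(A) signal in the last 50 bases above the line. The sIVs replicate 4 column is darkest, and the low transcripts in it lie mostly below the line.

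Peg13 was the most abundant of the 57 by length, with a mean of 68.7 CPM per kb. It is an imprinted non-coding RNA expressed from the paternal chromosome, and it lies in intron 16 of Trappc9 at chr15:72805600-72810324 on the minus strand. Trappc9 encodes a subunit of the TRAPP complex of vesicle traffic. Peg13 stood at 382, 325, 322 and 332 CPM in PBS and at 379, 346, 208 and 303 CPM in sIVs replicates 1, 3, 4 and 5. The groups overlapped, with sIVs replicate 4 lowest. The edgeR log2 difference of sIVs minus PBS was -0.14 (SE 0.18, Benjamini-Hochberg adjusted p = 0.821 by the quasi-likelihood test), and 0.010 without sIVs replicate 4. Per kb, Peg13 was at 345% of Trappc9.

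Gm15513 came next with 15.7 CPM per kb. It is spliced and lies in intron 8 of Zfyve28, which encodes a FYVE-domain protein of endosomes, at chr5:34211810-34213802 on the minus strand. Its level was 23.7, 25.9, 24.7 and 19.9 CPM in PBS and 24.7, 25.8, 27.9 and 23.99 CPM in sIVs. It was highest in sIVs replicate 4, where Zfyve28 had 62.3 CPM against 92.2 to 141 in the other 7 libraries. The other transcripts of high level per length were Gm29093 in Abhd17a with 13.3 CPM per kb, Gm17491 in Slc20a2 with 10.6, Gm37963 in Usp4 with 8.87 and Gm45148 in Zfp444 with 8.12. Abhd17a removes palmitate from proteins, Slc20a2 is a sodium-phosphate transporter, Usp4 is a deubiquitinase and Zfp444 is a zinc finger protein.

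Most of the 57 were scarce beside their hosts. Over 52 pairs, the transcript had a median of 15.5% of its host's level per kb, with a range of 0.429% to 426%. Only Peg13, Gm17491 (123% of Slc20a2) and Gm15535 (426% of Gm37240) exceeded the host. The value of 426% rests on a scarce host, since Gm37240 had 6 to 19 counts per library. Per kb, Gm37240 had 0.161 CPM and Gm15535 had 0.686. The 57 had 0.125 to 68.7 CPM per kb, with a median of 1.39.

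None of the 57 passed the test between sIVs and PBS. All 57 passed the filter on low counts and were tested among 17004 genes, of which 0 (0%) were called by edgeR's quasi-likelihood test, with 255 (1.5%) at an unadjusted p under 0.05. Among the 57, 1 had an unadjusted p under 0.05, and the lowest adjusted p was 0.81. DESeq2 and limma-voom with sample quality weights also called 0 of them, with 1 and 3 of the 57 at an unadjusted p under 0.05.

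More of the 57 had a negative than a positive log2 difference, 43 against 14. The 24.6% that were positive stood beside 51.3% of all genes tested, and the median was -0.16 beside 0.0093. Without sIVs replicate 4, 33 of 57 were positive and the median was 0.031. The excess of negative values therefore rested on that library. No transcript had all sIVs libraries above all PBS libraries (1.08% of all genes tested), and 2 had all of them below (0.929% of all genes tested), Gm43138 and Gm38190.

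Gm43138, a 1-exon RNA in intron 14 of the golgin gene Golga3 (chr5:110206580-110207287, plus strand), had the lowest unadjusted p of the 57. It stood at 2.27, 1.45, 1.75 and 1.62 CPM in PBS and at 0.645, 1.35, 0.262 and 0.894 CPM in sIVs, with means of 1.77 ± 0.353 and 0.787 ± 0.456 (SD, n = 4 each). Every sIVs library was below every PBS library, although sIVs replicate 3 lay close to the lowest of them, PBS replicate 3. The log2 difference was -1.16 (SE 0.43; edgeR quasi-likelihood, Benjamini-Hochberg adjusted p = 0.81), and -0.87 without sIVs replicate 4. Golga3 itself had a log2 difference of -0.23, and of -0.038 without that library.

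Gm38190 lies in intron 1 of Tiprl, a regulator of PP2A-type phosphatases, at chr1:165230371-165235125 on the minus strand. It had 7.41, 6.42, 6.65 and 6.26 CPM in PBS and 5.80, 6.25, 0.589 and 4.95 CPM in sIVs. All 4 sIVs values lay below the PBS values, but 3 of them by little, and sIVs replicate 4 was at 9.42% of the median of the other libraries. Its log2 difference was -0.61 (SE 0.52; edgeR adjusted p = 0.81), and -0.24 without sIVs replicate 4.

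The other negative differences of smallest p had overlapping groups. Gm44200 in Brk1 had -0.97, Gm44167 in Atp2b2 had -1.01, Gm20274 in Rbbp6 had -0.80 and Gm43696 in Lrig2 had -0.69. Without sIVs replicate 4 they were -0.60, -0.63, -0.41 and -0.31. Their edgeR adjusted p was 0.81 in each case with all libraries. Brk1 is a subunit of the WAVE complex of actin assembly, Atp2b2 is a plasma membrane calcium pump and Rbbp6 is a ubiquitin ligase that also takes part in pre-mRNA 3′ end formation.

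Among positive differences, Gm48161 had the largest value. This spliced RNA lies in intron 3 of Agtr1a, the angiotensin II receptor gene, which did not pass the filter on low counts (chr13:30370359-30377183, plus strand). It had 0.680, 0.984, 0.739 and 0.481 CPM in PBS and 2.72, 1.49, 0.196 and 1.58 CPM in sIVs. The lowest library was sIVs replicate 4, with 3 counts, while the other 3 sIVs libraries lay above all PBS libraries. The log2 difference was 1.04 (SE 0.60; edgeR adjusted p = 0.81). Without sIVs replicate 4 it was 1.41, with an unadjusted edgeR p of 0.00316 and a Benjamini-Hochberg adjusted p of 1.

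Gm42463, in intron 1 of Tdrkh, a Tudor-domain gene of the piRNA pathway, and 33 bases from an exon, stood at 3.78, 2.31, 2.62 and 2.23 CPM in PBS and at 5.16, 3.98, 3.80 and 2.82 CPM in sIVs. The groups overlapped through PBS replicate 1 and sIVs replicate 5. Its log2 difference was 0.53 (SE 0.27; edgeR adjusted p = 0.81) and 0.55 without sIVs replicate 4. Gm15708, in Bri3 and overlapping exons of Baiap2l1 on the opposite strand, had 0.69, and 0.68 without that library. Gm42829 in Arpc3, a subunit gene of the Arp2/3 complex, had 0.26 and 0.28. Gm19938 in intron 1 of Xkr4, which encodes a membrane protein of the XK-related family, had 1.03, and 0.16 without sIVs replicate 4. In that library Gm19938 stood at 4.26 CPM against 0.470 to 1.38 in the other 7 libraries. Xkr4 itself had 0.982 CPM there, from 15 counts, against 7.56 to 22.1 CPM in the other 7.

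The largest contrast within the set was between sIVs replicate 4 and the other libraries. In that library 37 of 57 transcripts (64.9%) had their lowest value of the 8, against 35.4% of all genes tested. For 34 of 57 the level was under 50% of the median of the other 7 libraries, against 12.1% of all genes tested. For 17 of 57 it was above 100%. The median log2 level against the other libraries was -1.19 for the 57, -0.21 for their 50 hosts and -0.0015 for all genes tested. Only 7 of 57 (12.3%) had their highest value there, against 35.7% of all genes tested. Of the 50 hosts, 52% had their lowest and 38% their highest value there.

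Counts in this library were few for many of the 57. Its total of 16009589 counts was the third highest, yet 6 transcripts were at 0 counts and 21 under 5. A count of 0 was taken to allow up to 3 counts, a fixed limit and not the Poisson interval given below for Gm42664. Such limits cover counting error only. The 6 were Gm17193, Gm28941, Gm48357, Gm42658, Gm43462 and Gm49223. No transcript was at 0 in any other library.

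The other libraries lay nearer to each other. The median log2 level of the 57 against the other libraries was -0.25 in sIVs replicate 5, with 0.011 for all genes tested, and 0.11 and 0.17 in sIVs replicates 1 and 3. In PBS replicates 1, 3, 4 and 5 it was 0.29, -0.028, 0.00025 and -0.18, so PBS replicate 5 was also on the low side. For 18 of 57 transcripts (31.6%), sIVs replicates 4 and 5 held the lowest pair of values, against 18.2% of all genes tested. The lowest value of the 8 lay in sIVs replicate 5 for 3 of 57 (5.26%), against 4.07% of all genes tested. PBS replicates 3 and 5 held it for 5 and 4 of 57.

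Gm42664, named after its values were seen, shows the contrast in an abundant transcript. It lies in intron 7 of Ptbp2, a neuronal splicing regulator, at chr3:119743208-119746446 on the minus strand. It had 23.6, 22.1, 17.9 and 15.2 CPM in PBS and 18.7, 20.2, 0.524 and 10.2 CPM in sIVs. The 8 counts of sIVs replicate 4 (95% Poisson interval 3.45 to 15.8) came to 2.80% of the median of the other libraries, and sIVs replicate 5 was the next lowest. Ptbp2 had 129 CPM in sIVs replicate 4 and 128 to 153 CPM in the other libraries, so the host did not share the drop.

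Gm28941 in intron 7 of Mff, a mitochondrial fission factor, and Gm47798 in intron 10 of Ngly1, a cytosolic peptide N-glycanase, behaved alike. Gm28941 had 3.86, 4.22, 3.63 and 1.87 CPM in PBS and 4.37, 4.05, 0 and 2.41 CPM in sIVs, while Mff was highest in sIVs replicate 4 with 196 CPM against 143 to 158. Gm47798 had 5.74, 5.79, 5.24 and 5.30 CPM in PBS and 5.59, 6.18, 0.131 and 1.93 CPM in sIVs, while Ngly1 had 37.5 CPM in sIVs replicate 4 against 28.5 to 33.3. In both, the nested RNA was lowest where the host was highest.

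**Figure D2:**
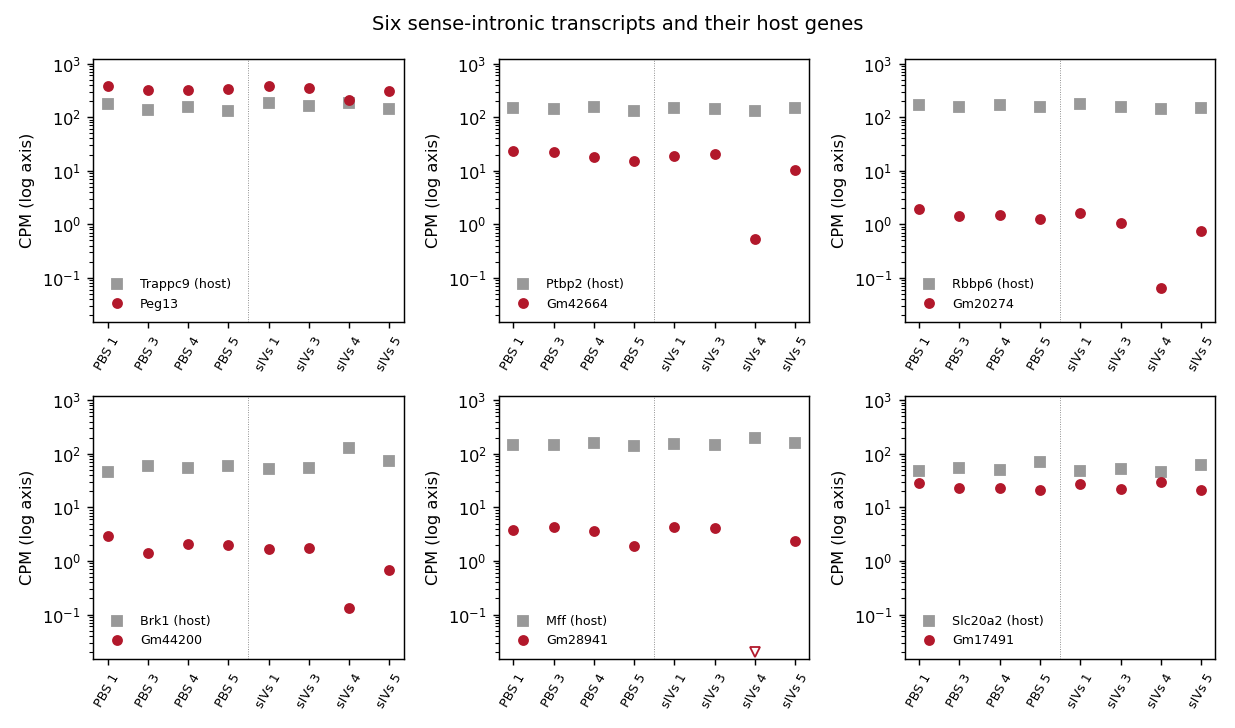
CPM (log axis) of 6 sense-intronic transcripts (circles) and their hosts (squares) in each of the 8 libraries, with an open triangle at the bottom for a count of 0. The nested RNA of Ptbp2, Rbbp6, Brk1 and Mff drops in sIVs replicate 4 while the host does not drop with it to a like degree, and Gm17491 keeps its level.

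Low levels in this library were then counted by the hexamer over all 57. Of 24 transcripts with a hexamer in the last 50 bases, 8 were under 50% in sIVs replicate 4, with a median of 77.9% of the level in the other libraries. Of 33 without one, 26 were under 50%, with a median of 21.1%. The search was made after the levels had been seen, so these counts are given without a test. In sIVs replicate 5 the median log2 level against the other libraries was -0.091 with a hexamer and -0.39 without. In PBS replicate 5 the order was the reverse, with -0.24 and -0.13.

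Among 1-exon transcripts, 5 of 15 with and 12 of 15 without a hexamer were under 50% in sIVs replicate 4, with medians of 67.9% and 9.42%. Among spliced transcripts the counts were 3 of 9 and 14 of 18, with medians of 113% and 28.7%. The difference between 1-exon and spliced transcripts was not tested. The longest run of A anywhere in the transcript had a median of 6 bases in the 34 low transcripts and 7 in the other 23. How near such runs lay to the 3′ end was not compared.

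Between the groups, 9 of 24 transcripts with a hexamer and 5 of 33 without one had a positive log2 difference, with medians of -0.080 and -0.27. Without sIVs replicate 4 the counts were 15 of 24 and 18 of 33, with medians of 0.048 and 0.023.

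**Figure D3:**
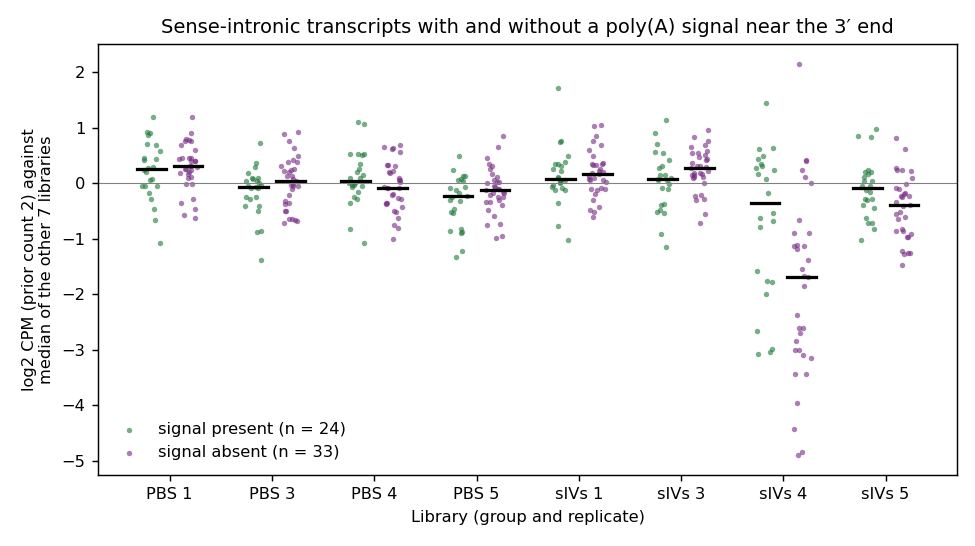
Log2 CPM of each of the 57 transcripts against its median in the other 7 libraries, by library, for the 24 with (green) and the 33 without (purple) a poly(A) signal in the last 50 bases; bars are medians. The medians lie between -0.39 and 0.30 in every library except sIVs replicate 4, where they are -0.35 and -1.69.

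Several transcripts went against this split. Of the 8 that held a hexamer and were low, 4 are the printed Gm20274, Gm43138, Gm19409 and Gm48357. None of the 16 that held a hexamer at 50% or more had the letters CAGTGTACT. These letters were read off those 4 low transcripts, so this count cannot show a link with level. Gm20274 had 1.97, 1.45, 1.48 and 1.26 CPM in PBS and 1.65, 1.07, 0.0655 and 0.756 CPM in sIVs, so both sIVs replicates 4 and 5 lay below all other libraries. Conversely, Gm19938, without a hexamer, was at 499% in sIVs replicate 4, the highest of the 57, and Gm42463, also without, at 135%.

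Other transcripts showed the same split at other rates. TEC genes, which are loci annotated as still to be experimentally tested, were under 50% in sIVs replicate 4 in 21 of 43 cases (48.8%) with a hexamer and in 115 of 150 (76.7%) without, when nested in a host on the same strand. TEC genes not nested gave 26.8% and 46.0%, and lincRNA genes 15.8% and 33.7%. The sense-intronic transcripts gave 33.3% and 78.8%, which is near the nested TEC genes among those without a hexamer; the difference between classes was not tested.

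**Figure D4:**
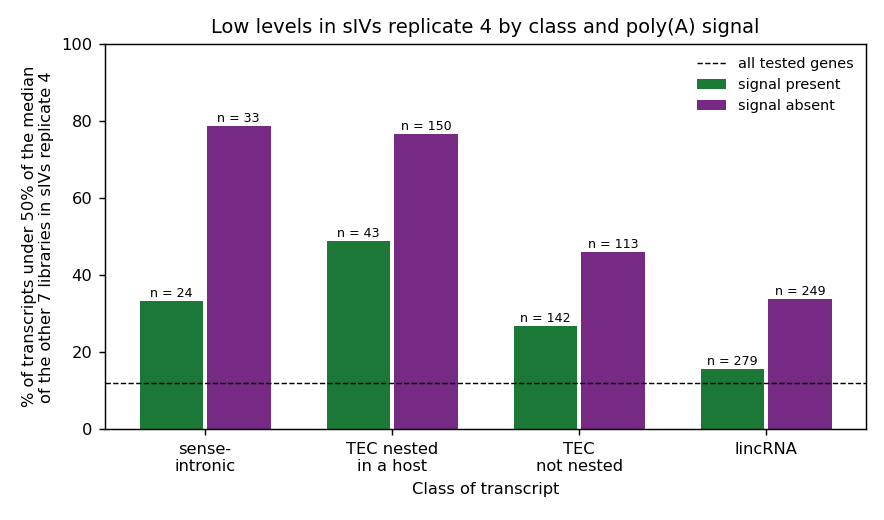
Share of transcripts under 50% of the median of the other 7 libraries in sIVs replicate 4 (percent), by class, with and without a poly(A) signal in the last 50 bases; n is the number of genes tested and the dashed line is the 12.1% of all tested genes. In each class the share is higher without the signal, 78.8% against 33.3% for the sense-intronic transcripts.

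Levels of nested RNA and host were then correlated over the 8 libraries, as Pearson r of log2 CPM with an exact permutation p, adjusted over 384 non-coding genes nested in a tested host. Of the 384, 28 (7.29%) were called and 127 (33.1%) had an unadjusted p under 0.05. Among the 52 sense-intronic pairs 5 were called (9.62%), a share near the background, and 21 had an unadjusted p under 0.05, of which 15 were positive. Positive and negative r were equally frequent, 26 each, with a median of -0.016 beside 0.14 for the 332 other nested genes. With 7 libraries, leaving out sIVs replicate 4, 32 of 52 were positive, the median was 0.24 and no pair was called. With Spearman's rho no pair was called either.

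The 5 called pairs kept their sign without sIVs replicate 4, but no pair was called when that library, sIVs replicate 5, PBS replicate 1 or PBS replicate 4 was left out. Gm43031 in intron 45 of Akap9, a scaffold protein of centrosome and Golgi, had 4.84, 4.74, 4.64 and 3.97 CPM in PBS and 5.80, 4.90, 2.68 and 3.58 CPM in sIVs. Akap9 had 178, 150, 137 and 152 CPM in PBS and 174, 153, 54.1 and 103 CPM in sIVs. Both were lowest in sIVs replicates 4 and 5. Pearson's r was 0.92 (n = 8, exact permutation p = 0.00226, adjusted p = 0.0431) and Spearman's rho 0.86 (exact permutation p = 0.0107, adjusted p = 0.171). It was 0.80 without sIVs replicate 4 and 0.53 without the 2 libraries in which Akap9 lay farthest from its median, sIVs replicates 4 and 5.

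Gm20274 followed Rbbp6, which had 170, 157, 166 and 155 CPM in PBS and 175, 158, 144 and 149 CPM in sIVs. Both were lowest in sIVs replicates 4 and 5. Here r was 0.79 (n = 8, exact permutation p = 0.00114, adjusted p = 0.031) and rho 0.90 (exact permutation p = 0.00456, adjusted p = 0.11). It was 0.86 without sIVs replicate 4 and 0.89 without the 2 farthest libraries, sIVs replicates 1 and 4. The drop of the host in sIVs replicate 4, to 91.4% of the median of the others, was far smaller than that of Gm20274, to 4.53%, which rests on 1 count.

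Gm11611 in intron 18 of Srcin1, an inhibitor of SRC kinase signalling, had 2.27, 2.78, 1.95 and 2.53 CPM in PBS and 1.43, 2.98, 0.917 and 1.93 CPM in sIVs, with Srcin1 at 48.4 CPM in sIVs replicate 4 and 62.8 to 78.1 CPM elsewhere. Both were lowest in sIVs replicate 4. The pair had r = 0.93 (n = 8, exact permutation p = 0.00258, adjusted p = 0.0431) and rho = 0.83 (exact permutation p = 0.0154, adjusted p = 0.179), with r = 0.79 without sIVs replicate 4 and 0.87 without the 2 farthest libraries. 

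Gm43462 in intron 6 of Man1a2, a Golgi mannosidase gene, had 1.36, 0.579, 0.269 and 1.02 CPM in PBS and 0.717, 1.21, 0 and 0.688 CPM in sIVs. Man1a2 had 62.0 CPM in sIVs replicate 4 and 79.8 to 91.4 CPM elsewhere, so both were lowest there. The pair had r = 0.95 (n = 8, exact permutation p = 0.00174, adjusted p = 0.0392) and rho = 0.83 (exact permutation p = 0.0154, adjusted p = 0.179). The r was 0.80 without sIVs replicate 4 and 0.85 without the 2 farthest libraries, and it rests on 86 counts in all.

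Gm44200 in intron 1 of Brk1 (chr6:113607475-113611527, plus strand) was the called pair of negative sign. It had 2.87, 1.39, 2.08 and 1.99 CPM in PBS and 1.65, 1.78, 0.131 and 0.688 CPM in sIVs, while Brk1 had 46.4, 59.3, 54.4 and 60.4 CPM in PBS and 52.02, 55.5, 129 and 73.3 CPM in sIVs. The RNA was lowest and Brk1 highest in sIVs replicates 4 and 5. Here r was -0.98 (n = 8, exact permutation p = 0.00129, adjusted p = 0.031) and rho -0.76 (exact permutation p = 0.0368, adjusted p = 0.257). It was -0.90 without sIVs replicate 4 and -0.71 without both sIVs replicates 4 and 5. Exons of Gm44200 overlap Gm44199 on the opposite strand.

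Among other r values of large size, those of the 7 pairs listed next were smaller in size without sIVs replicate 4, to different degrees. Not every large r rested on that library. Gm42659 with Capza1 had r = 0.90, and 0.78 without it, and Gm17491, described below, also kept most of its r. Gm37062 with Rev1, a translesion DNA polymerase, had r = 0.96, Gm17193 with Arel1, a ubiquitin ligase, 0.95, and Gm12737 with Tut4, a terminal uridylyltransferase, 0.94. Without the library they were 0.67, 0.52 and 0.41. At the negative end, Gm38190 with Tiprl had -0.94, Gm28941 with Mff -0.88, Gm19938 with Xkr4 -0.84 and Gm47798 with Ngly1 -0.84, which became -0.59, 0.26, -0.21 and -0.53. The adjusted p of these 7 pairs was 0.0676 to 0.202 by exact permutation with n = 8, and that of rho was 0.179 to 0.853.

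Peg13 and Trappc9 went the other way. Trappc9 had 177, 139, 152 and 131 CPM in PBS and 182, 161, 181 and 142 CPM in sIVs. Over 8 libraries r was -0.098 (exact permutation p = 0.871, adjusted p = 0.919) and rho 0.24, and r was 0.84 without sIVs replicate 4, in which Peg13 was lowest and Trappc9 near its highest. Gm17491 and its host Slc20a2 had r = -0.83 (n = 8, exact permutation p = 0.00866, adjusted p = 0.0707), rho = -0.93, and r = -0.78 without that library. Slc20a2 was highest in PBS replicate 5 and sIVs replicate 5, with 69.8 and 62.2 CPM, where Gm17491 was lowest, with 21.4 and 20.8 CPM.

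The sign of r followed the host's level in sIVs replicate 4. Where the host was below its median of the other libraries there, 23 of 31 pairs had a positive r, and where it was at or above, 3 of 21 did. In 20 pairs both were below, in 18 the nested RNA was below and the host above, in 11 the reverse held, and in 3 both were above. The median host was at 86.7% and the median nested RNA at 37.1% of its level in the other libraries. Since 1 library sets both values, these counts describe that library.

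**Figure D5:**
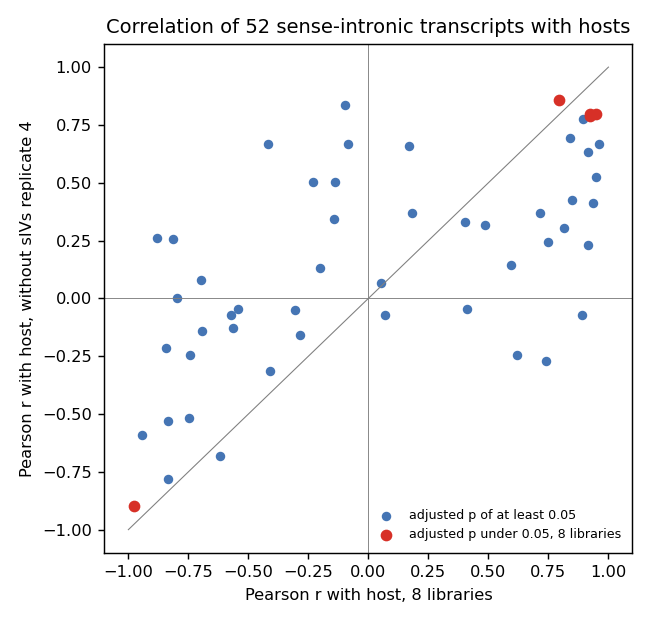
Pearson r of each of the 52 transcripts with its host over 8 libraries (horizontal axis) and over 7, without sIVs replicate 4 (vertical axis); red marks the 5 pairs with an adjusted p under 0.05. Most points lie nearer 0 on the vertical axis than on the horizontal one, and the red ones lie at 0.79 or more or at -0.90 on it.

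The ratio of nested RNA to host gave no call between sIVs and PBS. Of 384 ratios, 0 (0%) were called by limma with Benjamini-Hochberg adjustment and 8 (2.08%) had an unadjusted p under 0.05. Among the 52, 37 ratios were lower in sIVs, beside 70.8% of all 384, and the median log2 difference was -0.36 beside -0.37 for the other nested genes. Without sIVs replicate 4 the median was -0.013. The lowest p was that of Gm43138 to Golga3, with a log2 difference of -0.90 (SE 0.39, limma adjusted p = 0.685) and of -0.79 without that library. Gm42463 to Tdrkh had 0.75, Gm44200 to Brk1 -1.61 and Gm19938 to Xkr4 1.95, which were 0.56, -0.73 and 0.57 without it. In sIVs replicate 4 Gm19938 was at 499% and Xkr4 at 6.53% of the median of the other libraries.

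Genes of splicing and nuclear RNA decay, and nuclear-retained long non-coding RNAs, did not pass the test either. Of the lists below, 0 genes were called by edgeR with or without sIVs replicate 4. Of 20 core spliceosome genes, 14 were higher and 6 lower in sIVs, with a median log2 difference of 0.10. Of these 20, 12 were highest in sIVs replicate 4, and without it 13 were higher and 7 lower, with a median of 0.019. Of 23 splicing regulators, a list of genes known for introns detained in their own nuclear transcripts, 14 were higher and 9 lower, with a median of 0.040. Without that library 18 were higher and 5 lower, with a median of 0.032. Of 17 tested genes of nuclear RNA decay, 7 were higher and 10 lower, with a median of -0.021, which was 0.00076 without that library (9 higher and 8 lower). The 12 nuclear-retained long non-coding RNAs had 3 higher and 9 lower, with a median of -0.076, and 7 of the 12 were lowest in sIVs replicate 4. Without it 5 were higher and 7 lower, with a median of -0.035.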

How the data were processed

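Mouse retina RNA-seq, 4 sIVs and 4 PBS libraries, was grouped by the sample titles. The authors deposited raw counts per gene with biotype, position, strand and length, and FPKM values of the same genes, which are counts per kilobase and library total. The submitters' processing notes name mm10; poly(A) selection and 150 bp paired-end reads are per the labels' protocols. The sources used here do not give the aligner, counter, annotation release or strand setting. All 57 sense-intronic genes had the same start and end in GENCODE M21, which gave exons and transcript sequences. Depth was 13803958 to 16622259 counts per library.

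The host was the shortest same-strand protein-coding gene containing the transcript. Counts of 17004 genes kept by filterByExpr were scaled with TMM and tested with edgeR 4.0.16 (quasi-likelihood, R 4.3.3), group as the only term, two-sided, Benjamini-Hochberg adjusted at 0.05. CPM are counts per 1000000 of TMM-scaled library size, and log2 CPM used a prior count of 2. The SE is the log2 difference over the square root of F. Host correlations used exact permutation over 40320 pairings, two-sided, and ratios limma 3.58.1 with a trend, both over 384 nested genes. Percent of the median in sIVs replicate 4 used CPM. The edgeR test was checked on simulated counts, and the correlation and ratio tests on simulated normal values. No simulation held a library that stood apart as sIVs replicate 4 does. Alternatives were DESeq2 1.42.0, limma-voom weights, limma on log2(FPKM + 0.1), no filter, a replicate block, other scaling, a prior count of 0.5, the longest host, group means subtracted, Spearman's rho and each library left out.

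Named transcripts were those called in any test, the 6 of highest mean count per kb, the 5 of smallest p in each direction, the 5 of highest and lowest r and the 4 of smallest ratio p; others are named as chosen later. The transcripts and lists were chosen with earlier results of these data known.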

Additional observations from a re-analysis of the deposited data

Results flagged for a closer look

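Dixon's criterion for a library far from the other 3 of its group, which chance meets in about 1 of 20 groups, was applied to 25 named transcripts and their 25 hosts, 50 groups each. No named transcript met it, and 4 hosts did, 2 in each group, which is near the shares over all genes tested that are given last. Abhd17a, host of Gm29093, had 228 CPM in sIVs replicate 4 against 101 to 121 in the other sIVs libraries. Mff, host of Gm28941, had 196 CPM in sIVs replicate 4 against 149 to 157. Tiprl, host of Gm38190, had 44.7 CPM in PBS replicate 5 against 50.7 to 51.7 in the other PBS libraries. Tut4, host of Gm12737, had 72.8 CPM in PBS replicate 5 against 81.4 to 81.5. Of the 57 transcripts, 2 met the criterion in PBS and 2 in sIVs (3.51% each), against 5.78% and 8.15% of all genes tested.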

How the results depend on the processing

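No gene and no sense-intronic transcript was called between sIVs and PBS, and no ratio to a host, under any alternative run. Same-numbered samples deviated together for 3 of 4 numbers: the correlation was 0.60, 0.025, 0.23 and 0.51 for numbers 1, 3, 4 and 5. Numbers 1, 4 and 5 correlated best with their own number and 3 with 5. The labels do not say that a number pairs samples, so the main tests did not use pairs. Whether the numbers mark pairs is not known. With the replicate block, 0 genes and 0 transcripts were called, 588 genes had an unadjusted p under 0.05, the median log2 difference of the 57 was -0.26 (-0.16 without it) and that of the ratios -0.36. The median log2 difference, -0.16, ranged from -0.36 to 0.03 with 1 library left out, was 0.031 without sIVs replicate 4 and 0.014 with limma-voom weights. The ratio median ranged from -0.55 to -0.013 with 1 library left out. The 5 called host pairs became 0 to 4 with 1 library left out (0 without PBS replicate 1 or 4 or sIVs replicate 4 or 5), 14 with group means subtracted and 0 with Spearman's rho. With group means subtracted, the permutation still exchanged values across the groups, so its p-values are not exact and the 14 may be too many. The median r, -0.016, ranged from -0.21 without PBS replicate 1 to 0.24 without sIVs replicate 4, and was 0.022 with the longest host, 0.089 with group means subtracted and 0.17 with rho; the cause was not tested.

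Of 25 named transcripts, 9 changed sign under some alternative. With 1 library left out, the log2 difference ranged from -0.53 to 0.29 for Gm12737, -0.045 to 0.14 for Gm17491, -0.46 to 0.082 for Gm29093, -0.66 to 0.089 for Gm28941, -0.33 to 0.18 for Gm37963, -0.78 to 0.12 for Gm43462, -0.29 to 0.066 for Gm43031, -0.25 to 0.010 for Peg13 and -0.25 to 0.20 for Gm45148. The end opposite to the reported sign was the value without sIVs replicate 4 in all 9. With limma-voom weights the values were Gm12737 0.078, Gm17491 -0.0069, Gm29093 0.25, Gm37963 0.25, Gm43462 0.50, Gm43031 0.036, Peg13 0.033 and Gm45148 0.30. Depth limits the scarcest transcripts, of which 21 had under 5 counts in sIVs replicate 4. The median of the RNA decay list was -0.021, and 0.00076 without sIVs replicate 4, an alternative chosen after seeing the data, as was Spearman's rho.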
